A study of Mus musculus with 17 samples.

Results

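The 10 genes described here encode integrin subunits of leukocytes: the alpha subunits Itgam, Itgax, Itgal, Itga4, Itga6 and Itgav and the beta subunits Itgb1, Itgb2, Itgb5 and Itgb7. They were chosen by gene symbol from a table of 38087 genes, and each of the 10 stood on a single row. The cells were sorted from tibialis anterior muscle, and the donors were DBA/2J males, 3 months old, injured beforehand with cardiotoxin, which destroys myofibres so that the muscle regenerates. There were 6 groups with 17 samples: 2 samples of day 1 neutrophils and 3 samples of each macrophage group, which were Ly6C high (day 1, day 2, day 4) or Ly6C low (day 2, day 4). All groups were of the same strain, sex, age and injury, with no uninjured or untreated group among them. The labels do not say whether a sample came from 1 animal or was pooled. The table holds 1 value per group, taken to be the mean that the authors formed on the log2 scale of normalised reads. There is thus no error to give for any value, and whether neighbouring levels differ by more than the spread between samples is unknown.

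Integrins are adhesion receptors made of 1 alpha and 1 beta subunit, which reach the cell surface as a pair and are switched on from inside by talin and kindlin. On leukocytes the beta 2 subunit (Itgb2, CD18) pairs with Itgal (CD11a), Itgam (CD11b), Itgax (CD11c) or Itgad (CD11d) and binds ICAMs, fibrinogen and complement fragments. The beta 1 subunit pairs with many alpha subunits that bind fibronectin, laminin or VCAM-1, the beta 7 subunit pairs with Itga4 or Itgae, and Itgav pairs with several beta subunits, Itgb5 among them, to bind vitronectin and other proteins with an RGD sequence. CD11b and CD11c are also widely used surface markers of myeloid cells and of dendritic cells and some macrophages.

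The promoters of 4 members are shown because their genes were the clearest examples of opposite courses in the macrophages: Itgam against Itgax among the alpha subunits, and Itgb7 against Itgb5 among the beta subunits. Each line gives the 250 bases before the RefSeq start site on GRCm38.p6, 5′ to 3′ on the gene's strand. Capitals mark the letters GAGGAA (the core bound by PU.1, the transcription factor of myeloid identity), TGTGGT (the core bound by RUNX factors), GGGCGG (the box bound by Sp1) and TGANTCA (the AP-1 site), searched on both strands.
Itgam, chr7:128062390-128062639, plus strand: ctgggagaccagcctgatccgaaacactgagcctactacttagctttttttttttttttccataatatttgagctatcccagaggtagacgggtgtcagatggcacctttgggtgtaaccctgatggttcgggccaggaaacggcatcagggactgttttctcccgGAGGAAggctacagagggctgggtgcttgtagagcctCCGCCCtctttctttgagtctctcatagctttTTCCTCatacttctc
Itgax, chr7:128129300-128129549, plus strand: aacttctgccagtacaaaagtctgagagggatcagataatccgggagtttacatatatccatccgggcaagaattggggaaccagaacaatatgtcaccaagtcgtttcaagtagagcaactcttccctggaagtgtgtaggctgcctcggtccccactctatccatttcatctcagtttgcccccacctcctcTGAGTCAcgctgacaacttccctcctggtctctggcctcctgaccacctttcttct
Itgb5, chr16:33829415-33829664, plus strand: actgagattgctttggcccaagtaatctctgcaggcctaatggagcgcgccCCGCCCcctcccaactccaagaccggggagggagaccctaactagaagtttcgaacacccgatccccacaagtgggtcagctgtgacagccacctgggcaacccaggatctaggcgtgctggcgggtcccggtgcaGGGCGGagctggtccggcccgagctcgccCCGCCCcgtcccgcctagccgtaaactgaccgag
Itgb7, chr15:102231936-102232185, minus strand: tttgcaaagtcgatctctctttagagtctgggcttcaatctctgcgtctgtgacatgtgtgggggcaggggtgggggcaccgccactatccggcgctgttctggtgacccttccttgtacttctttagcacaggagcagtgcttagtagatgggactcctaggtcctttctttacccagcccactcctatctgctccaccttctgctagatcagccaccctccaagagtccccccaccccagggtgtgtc
The Itgam window held GAGGAA at position -84 before the start, the same letters on the opposite strand at -15 and the Sp1 box on the opposite strand at -47. The Itgax window held an AP-1 site at -56 and none of the other letters. The Itgb5 window held 3 Sp1 boxes, and the Itgb7 window held none of the 4 motifs. No 2 of the marked stretches overlapped. Of the 7 members with a RefSeq promoter in the table used, 3 held the PU.1 letters, 4 the Sp1 box, 1 the RUNX letters and 1 the AP-1 site. Of 32851 promoters of the same length, 23.3% held the PU.1 letters, 32.7% the Sp1 box, 14.0% the RUNX letters and 6.75% the AP-1 site. A match is a match of letters only, and these data hold no measurement of factor binding.

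The sorted columns were checked against marker genes. All 10 macrophage markers reached a log2 value of 5 in each of the 6 columns, the neutrophil column included, where their summed level was 17.31 on the log2 scale against 17.76 to 18.37 in the macrophage columns. Single markers went both ways. In day 1 Ly6C high cells 2 of the 10 were 2-fold higher than in neutrophils and 3 lower, against 16.6% and 16.1% of all genes. Fcgr1 was at 11.65 in those macrophages and 9.79 in neutrophils, and C1qc at 9.14 and 10.71. The 12 neutrophil markers summed to 16.44 in neutrophils and to 11.08 to 12.22 in macrophages. Of the 12, 9 reached 5 in the neutrophil column and 4 to 8 in the macrophage columns. Ly6g, the neutrophil surface marker, was below 5 in the neutrophil column, at 3.48, and was listed at 0 in every macrophage column. Csf1r, the receptor that defines macrophages, reached 13.27 in the neutrophil column against 13.31 to 14.71 in the macrophage columns. The part of macrophage RNA in the members' neutrophil values was not tested. Fibroblast markers summed to 15.86 and 13.87 in Ly6C high and Ly6C low cells of day 4, against 7.96 to 10.45 in the macrophages of days 1 and 2, and endothelial markers to 12.60 in Ly6C high cells of day 4 against 9.13 to 10.11 in the other macrophage columns. In sorted bulk samples, fewer cells of a type and less RNA per cell cannot be told apart. From the spacing of recurring low values, 1 read was estimated to be worth 0.412 to 1.03 normalised units in a library. Only 24.6 to 56.0% of low values by column fitted such a spacing. With each library put at its group's mean, the lowest level of any member rested on an estimated 302.3 to 481.6 reads a library. That was Itgal in Ly6C low cells of day 2. The counting error of a member's group mean, estimated in the same way, was at most 0.045 on the log2 scale and leaves out the spread between samples.

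Itgam (ENSMUSG00000030786, GRCm38 chromosome 7, 128062640 to 128118491), the CD11b subunit, was the most abundant member per kilobase of exon in the neutrophils and in Ly6C high cells of day 1. Neutrophils gave a log2 level of 14.67, Ly6C high macrophages gave 14.80 on day 1, 14.14 on day 2 and 12.81 on day 4, while Ly6C low macrophages gave 13.60 on day 2 and 13.01 on day 4. It was highest in Ly6C high cells of day 1 and lowest in Ly6C high cells of day 4, a difference of -1.99 or 3.96-fold, of which -1.32 lay between days 2 and 4. Gm49368, a gene annotated on the same strand, shares 3450 exon bases with Itgam, and its own reads were not separated here.

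Itgax (ENSMUSG00000030789, chromosome 7, 128129547 to 128150657), the CD11c subunit, went the other way. The Itgax values (log2 normalised reads) were 10.80 for neutrophils, 9.33 (day 1), 9.94 (day 2) and 11.66 (day 4) for Ly6C high macrophages, 10.44 (day 2) and 12.68 (day 4) for Ly6C low macrophages. From the first to the last day it was 5.05-fold higher in Ly6C high cells, and it was 4.71-fold higher on day 4 than on day 2 in Ly6C low cells. The span between Ly6C high cells of day 1 and Ly6C low cells of day 4 was 10.2-fold, the widest of the 10 members among the 5 macrophage columns. Since Itgax is also a dendritic cell gene, markers of conventional dendritic cells were read beside it. Their summed level was 9.04, 9.08 and 9.76 in the Ly6C high columns by day and 8.26 and 8.88 in the Ly6C low columns, higher on day 4 as Itgax was, and lower in Ly6C low than in Ly6C high cells. Flt3, a defining gene of those cells, had 5.82, 6.32 and 7.84 in the Ly6C high and 4.66 and 5.53 in the Ly6C low columns. On day 4 Ccr7 (7.60 against 7.28) and Batf3 (5.17 against 4.85) were a little higher in Ly6C low cells, as Itgax was. The part of dendritic cells in the Itgax differences was not tested.

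Itgal (ENSMUSG00000030830, chromosome 7, 127296260 to 127335138), the CD11a subunit of the receptor for ICAM-1, set a single column apart. Neutrophils gave a log2 level of 11.14, Ly6C high macrophages gave 10.01 on day 1, 10.06 on day 2 and 10.54 on day 4, while Ly6C low macrophages gave 7.63 on day 2 and 10.10 on day 4. The 3 Ly6C high columns and the Ly6C low column of day 4 lay within 0.53 of each other, while Ly6C low cells of day 2 were 5.39-fold below Ly6C high cells of the same day and 5.51-fold below Ly6C low cells of day 4. Lymphocytes express Itgal strongly, and the T and NK cell markers summed to 6.19 and 5.88 in Ly6C high and Ly6C low cells of day 2, with Cd3e at 2.29 and 0.81. None of these 9 markers reached a log2 value of 5 in either column. Classical monocyte markers summed to 14.13 and 12.03 in the same columns, and Ly6c2, which encodes Ly6C, had 9.87 and 6.16. On day 4, where Itgal differed by -0.44, Ly6c2 had 10.56 in Ly6C high and 4.64 in Ly6C low cells. Their part in the day 2 difference was not tested.

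Itgb2 (ENSMUSG00000000290, chromosome 10, 77530252 to 77565708), the common beta subunit of these alpha chains, varied less than any of them. The Itgb2 values (log2 normalised reads) were 13.76 for neutrophils, 13.99 (day 1), 13.69 (day 2) and 13.00 (day 4) for Ly6C high macrophages, 13.22 (day 2) and 13.23 (day 4) for Ly6C low macrophages. The largest difference, between days 1 and 4 of Ly6C high cells, was -0.99, just inside the 2-fold line. After rescaling of the columns by their median ratio it was -1.06 and just outside, and after quantile normalization it was -0.53.

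**Figure D1:**
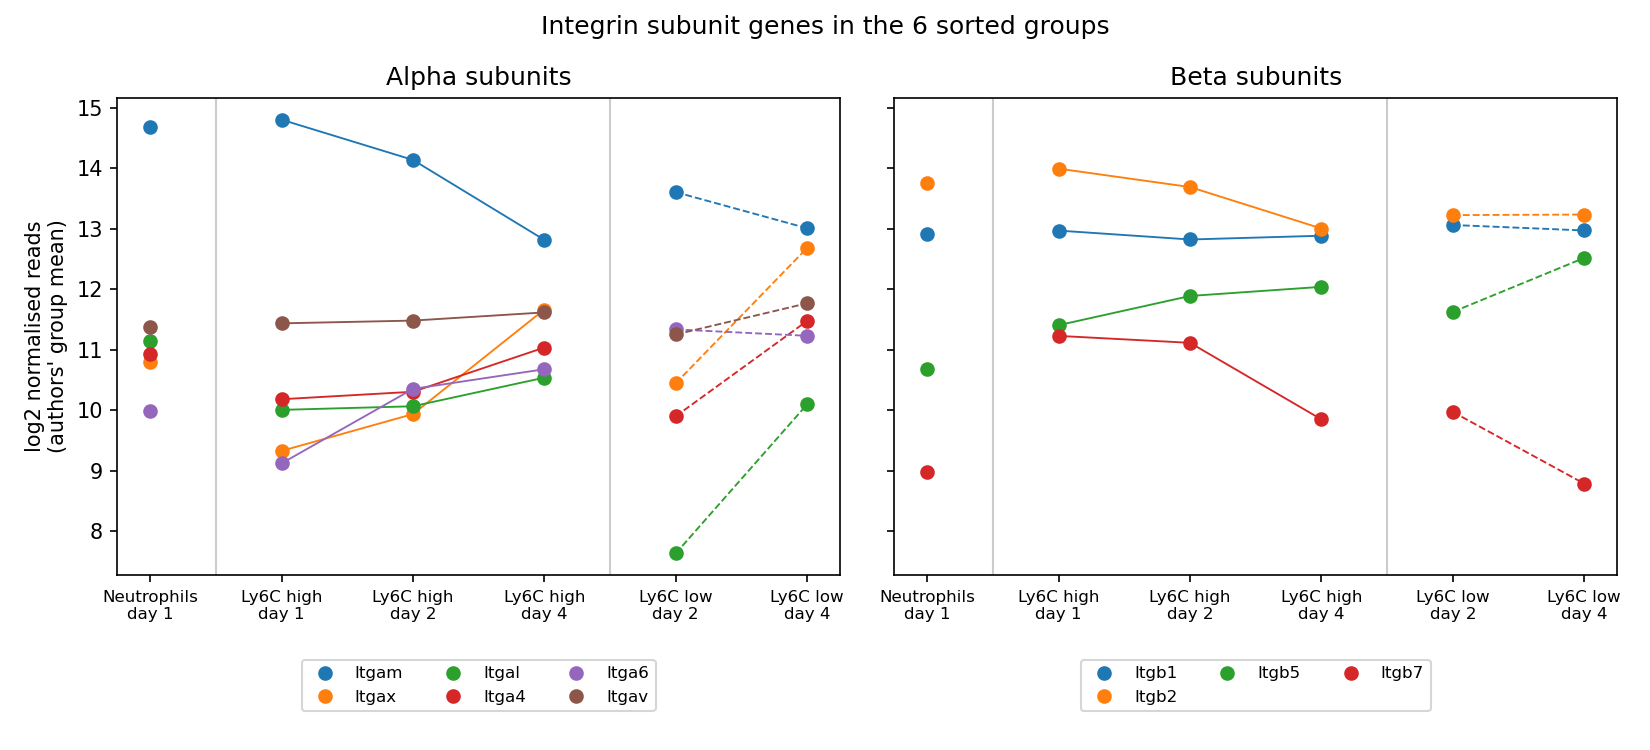
Levels of the 6 alpha and the 4 beta subunit genes, as deposited group means in log2 normalised reads (vertical axis), across the 6 sorted groups (horizontal axis), each point being 1 gene in 1 group, with solid lines for Ly6C high and dashed lines for Ly6C low cells and no error bars because there is 1 value per group. In Ly6C high cells Itgam goes from 14.80 on day 1 to 12.81 on day 4 while Itgax goes from 9.33 to 11.66, and Itgal stands apart at 7.63 in Ly6C low cells of day 2.

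Read levels of different genes were compared after division by exon length, since the values are not per length. On the scale of normalised reads per kilobase of exon, the 4 alpha partners of Itgb2 summed to 5922 for neutrophils, 5976, 3959 and 2365 for the Ly6C high columns by day, and 2810 and 3236 for the Ly6C low columns. Itgb2 itself had 4530 for neutrophils, 5335, 4323 and 2688 for Ly6C high, and 3134 and 3154 for Ly6C low. The sum over the alpha genes was thus between 0.880 and 1.31 times the level of Itgb2 in the 6 columns.

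Within that sum the shares changed from 1 dominant alpha gene to a near-even pair. Itgam made up 95.04, 90.5 and 60.6% of the summed alpha level in the Ly6C high columns of day 1, day 2 and day 4, and 88.1 and 50.6% in the Ly6C low columns of day 2 and day 4. Itgax made up 2.24, 5.15 and 28.5% in the Ly6C high columns and 10.3 and 42.3% in the Ly6C low columns. Itgal stayed between 1.08 and 9.57% in all 6 columns, lowest in Ly6C low cells of day 2. Itgad, which is no member but completes the set, was at 4.75, 5.44 and 7.09 in Ly6C high cells and at 5.86 and 8.17 in Ly6C low cells in log2 reads, and its share was 1.97% at its highest, in Ly6C low cells of day 4. In neutrophils the shares were 87.9% for Itgam, 6.26% for Itgax and 5.81% for Itgal.

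**Figure D2:**
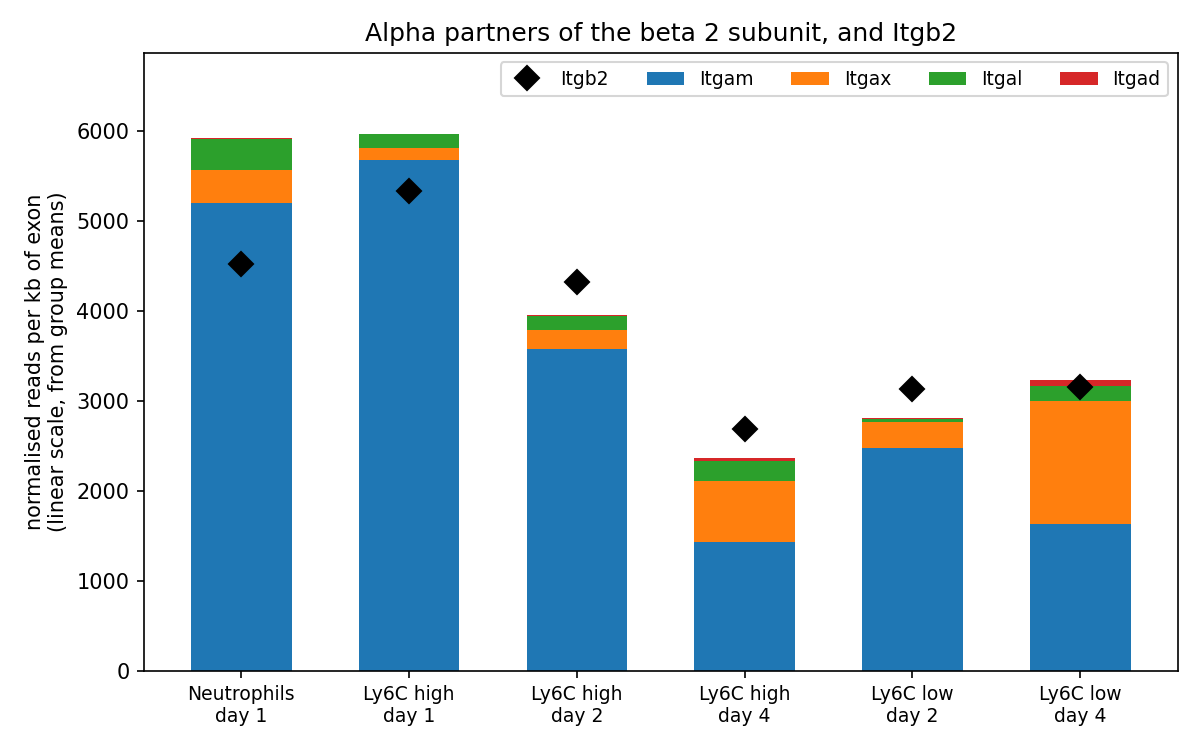
Normalised reads per kilobase of exon (vertical axis, linear scale from 0, computed from the group means) of the alpha partners of the beta 2 subunit, stacked by gene, with Itgb2 as black diamonds, in the 6 groups (horizontal axis). Bars and diamonds go down together from day 1 to day 4 in Ly6C high cells, and the Itgax part of the bar is 2.24% on day 1 and 42.3% in Ly6C low cells of day 4.

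Itgb1 (ENSMUSG00000025809, chromosome 8, 128685654 to 128733200), the beta subunit of the matrix-binding integrins, was the flattest of the 10. Neutrophils gave a log2 level of 12.91, Ly6C high macrophages gave 12.97 on day 1, 12.82 on day 2 and 12.88 on day 4, while Ly6C low macrophages gave 13.06 on day 2 and 12.97 on day 4. The span was 0.24. Differences this small changed sign with the scaling, from -0.08 to 0.24 between days 1 and 4 of Ly6C high cells after quantile normalization. Fibroblasts also express Itgb1, and the part of their RNA in its level was not tested.

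Among its alpha partners within the 10, Itga6 (ENSMUSG00000027111, chromosome 2, 71745616 to 71858416), a laminin receptor subunit, differed most. The Itga6 values (log2 normalised reads) were 9.99 for neutrophils, 9.12 (day 1), 10.35 (day 2) and 10.68 (day 4) for Ly6C high macrophages, 11.33 (day 2) and 11.23 (day 4) for Ly6C low macrophages. It was lowest in Ly6C high cells of day 1 and highest in Ly6C low cells of day 2, a span of 4.64-fold, and on both days with a Ly6C low column that column was above the Ly6C high column, by 0.98 on day 2 and by 0.55 on day 4. Endothelial cells express Itga6 too. Their summed markers went from 10.11 on day 1 to 12.60 on day 4 in Ly6C high cells, with all 10 genes 2-fold higher. Itga6 went in the same direction, but the steps differed. Between days 1 and 2 Itga6 was higher by 1.23, while the median marker difference was 0.02, with 1 of 8 compared 2-fold higher. Between days 2 and 4 Itga6 was higher by 0.33, while the median marker difference was 2.82, with all 10 2-fold higher. Between the subsets, 5 of 8 endothelial markers compared on day 2 and 9 of 10 on day 4 were 2-fold lower in Ly6C low cells. None was 2-fold higher. Among all genes 4.03% and 8.93% were lower, and 3.71% and 2.44% higher. Of the 10 endothelial markers, 7 reached a log2 value of 5 in Ly6C high cells of day 1. In each Ly6C low column 5 did so. A marker below 5 in 1 of 2 compared columns could be called only as higher in the other. These counts are thus partly set by that limit, which held for all genes too. Cdh5 was lower on both days (6.08 against 7.67 and 6.25 against 10.56), while Vwf alone in the list was higher (7.75 against 7.01 and 8.57 against 8.45). The part of endothelial RNA in the Itga6 differences was not tested.

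Itga4 (ENSMUSG00000027009, chromosome 2, 79255426 to 79333123), the alpha chain that binds VCAM-1 and fibronectin with Itgb1 and MAdCAM-1 with Itgb7, was higher on day 4 than before. Neutrophils gave a log2 level of 10.92, Ly6C high macrophages gave 10.18 on day 1, 10.30 on day 2 and 11.04 on day 4, while Ly6C low macrophages gave 9.90 on day 2 and 11.47 on day 4. The difference between days was 1.58 or 2.98-fold in Ly6C low cells and 0.73 between days 2 and 4 in Ly6C high cells. Its annotated exons overlap those of Cerkl on the opposite strand over 1124 bases. Whether the counting used strand is not given in the sources used here, and Cerkl was at 6.06 and 3.27 in Ly6C low cells of days 2 and 4. The part of Cerkl reads in the Itga4 values was not tested.

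Itgb7 (ENSMUSG00000001281, chromosome 15, 102215995 to 102231944), which pairs with Itga4 or Itgae, was lower in Ly6C low than in Ly6C high cells on both days and lower on day 4 than on day 2 in both subsets. The Itgb7 values (log2 normalised reads) were 8.99 for neutrophils, 11.23 (day 1), 11.11 (day 2) and 9.85 (day 4) for Ly6C high macrophages, 9.97 (day 2) and 8.79 (day 4) for Ly6C low macrophages. It was 4.73-fold higher in Ly6C high cells of day 1 than in neutrophils. It was 2.21-fold lower in Ly6C low than in Ly6C high cells on day 2 and 2.09-fold lower on day 4, and day 4 lay 2.40-fold below day 2 in Ly6C high cells and 2.27-fold below it in Ly6C low cells. Itgb7 is also known from mast cells and plasmacytoid dendritic cells. Mast cell markers summed to 5.24, 5.73 and 7.12 in Ly6C high cells by day and to 6.95 and 8.54 in Ly6C low cells. Plasmacytoid dendritic cell markers summed to 10.73, 10.97 and 12.35 in Ly6C high cells and to 10.50 and 10.95 in Ly6C low cells. Of the 6 genes, 5, 5 and 6 reached a log2 value of 5 in the Ly6C high columns by day. Only 2, Bst2 and Tcf4, did so in each Ly6C low column, where Ly6d was at 1.26 and 0.45. Siglech, which defines plasmacytoid dendritic cells, had 6.65, 7.03 and 9.51 in the Ly6C high columns by day and only 3.31 and 3.99 in the Ly6C low columns. It was thus lower in Ly6C low cells as Itgb7 was, and higher on day 4 where Itgb7 was lower, and the part of mast cells and of plasmacytoid dendritic cells in the Itgb7 differences was not tested.

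The other alpha partner of Itgb7, Itgae (CD103), had a log2 level of 7.86 in the neutrophil column, of 0.76, 4.00 and 3.58 in the Ly6C high columns by day, and of 3.98 and 3.49 in the Ly6C low columns. It was thus lowest in the column where Itgb7 was highest, near the floor of the values. Itga4 reached a log2 value of 9.90 or more in each column.

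Itgav (ENSMUSG00000027087, chromosome 2, 83724397 to 83806916), the alpha chain of the vitronectin receptors, stayed within 0.51 over the 6 columns. Gm13684 overlaps 634 of its exon bases on the opposite strand and was at 4.29 or less in every column. Neutrophils gave a log2 level of 11.37, Ly6C high macrophages gave 11.44 on day 1, 11.48 on day 2 and 11.62 on day 4, while Ly6C low macrophages gave 11.25 on day 2 and 11.77 on day 4. Its partner Itgb5 (ENSMUSG00000022817, chromosome 16, 33829665 to 33949338), which with Itgav takes part in binding apoptotic cells through the bridging protein Mfge8, varied more. The Itgb5 values (log2 normalised reads) were 10.68 for neutrophils, 11.41 (day 1), 11.89 (day 2) and 12.04 (day 4) for Ly6C high macrophages, 11.62 (day 2) and 12.52 (day 4) for Ly6C low macrophages. Itgb5 was lowest in neutrophils and highest in Ly6C low cells of day 4, a span of 3.58-fold, and its 2 day 4 columns were the 2 highest. Mfge8 had log2 levels of 7.16 (neutrophils), 6.56, 7.13 and 9.62 (Ly6C high by day) and 8.19 and 10.10 (Ly6C low by day). Fibroblasts express Itgb5 too, and their summed markers were also highest in the day 4 columns, at 15.86 in Ly6C high and 13.87 in Ly6C low cells. The part of fibroblast RNA in the Itgb5 differences was not tested. Per kilobase of exon, Itgb5 was at log2 values of 8.85 to 10.69 over the 6 columns, and Itgb3, the other beta partner of Itgav with a known role in macrophages, at 3.58 to 5.45.

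On the same per-length scale the order of the 10 genes differed between the first and the last macrophage column. In Ly6C high cells of day 1 Itgam (12.47) and Itgb2 (12.38) were on top, followed by Itgb1 (10.94), Itgb7 (9.76) and Itgb5 (9.58), and Itga6 (5.95) was lowest. In Ly6C low cells of day 4 Itgb2 (11.62) was on top, followed by Itgb1 (10.94), Itgb5 (10.69), Itgam (10.68) and Itgax (10.42), and Itgb7 (7.32) was lowest. The order depends on the length used. By coding length Itgb5 (10.11) was above Itgb7 (9.95) in Ly6C high cells of day 1, and the other named places were the same.

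The 7 comparisons between pairs of groups and 1 difference of differences were then read for all 10 genes together. A gene counted in a comparison when its log2 value reached 5 in at least 1 of the groups compared, which all 10 members did throughout. A gene was called 2-fold apart at a difference of 1 on the log2 scale. Where 2 columns were compared, a gene below 5 in 1 of them could thus be called only as higher in the other. The lowest member value was 7.63, so this bears on the lists and on all genes but not on the members. Comparisons that share a column are not independent.

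Between Ly6C high macrophages and neutrophils of day 1, 3 of the 10 members were 2-fold apart, Itgb7 higher (2.24) and Itgax (-1.47) and Itgal (-1.14) lower in the macrophages. Of all 11890 genes compared, 32.7% were 2-fold apart (16.6% higher, 16.1% lower), so the members' share was close to the background. Itgam (0.13), Itgb1 (0.06), Itgav (0.07) and Itgb2 (0.24) were nearly level between the columns.

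From day 1 to day 2 in Ly6C high cells, 1 of 10 members was 2-fold apart, against 2.51% of 11232 genes (1.41% higher, 1.1% lower). That gene was Itga6, higher by 1.23, and the next were Itgam (-0.66) and Itgax (0.61). From day 2 to day 4, 3 of 10 were 2-fold apart, against 16.3% of 12348 genes (14.3% higher, 2% lower): Itgax was higher by 1.73, and Itgam (-1.32) and Itgb7 (-1.27) were lower. With day 4 set against day 1, 4 of 10 were 2-fold apart, against 21.6% of 12391 genes, with Itgax (2.34) and Itga6 (1.56) higher and Itgam (-1.99) and Itgb7 (-1.38) lower. Among all genes 17.6% were higher and 3.97% lower there, while the members were called 2 in each direction. The median member difference was 0.36, and the median of all genes was 0.01.

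Ly6C low and Ly6C high cells of day 2 differed 2-fold for 2 of 10 members, against 7.74% of 11482 genes (3.71% higher, 4.03% lower). Both were lower in Ly6C low cells, Itgal by -2.43 and Itgb7 by -1.14, and Itga6 (0.98) was just short of the line on the other side. On day 4, 2 of 10 were 2-fold apart, against 11.4% of 12438 genes (2.44% higher, 8.93% lower), with Itgax higher (1.02) and Itgb7 lower (-1.06) in Ly6C low cells. The call of Itgax rests on the scaling, at 0.98 after quantile normalization. Itgal differed by -0.44 on day 4.

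Between days 2 and 4 of Ly6C low cells, 4 of 10 members were 2-fold apart, against 11.4% of 11824 genes (9.23% higher, 2.16% lower). Itgal (2.46), Itgax (2.24) and Itga4 (1.58) were higher on day 4 and Itgb7 (-1.18) was lower, while Itgam (-0.60), Itgb2 (0.01) and Itgb1 (-0.09) stayed inside the line. For 1 of 10 members the signed Ly6C low minus Ly6C high difference was at least 1 higher on day 4 than day 2. That was Itgal at 1.99, with -2.43 on day 2 and -0.44 on day 4, so the subsets lay closer on day 4. Among 12621 genes 7.06% changed this much, made up of 0.967% higher on day 4 and 6.09% lower. For Itgb7 the difference of differences was 0.08, since the gene was lower in Ly6C low cells by nearly the same amount on each day. The median over the members was 0.60, and 8 of 10 were above 0, while the median of all genes was -0.01.

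**Figure D3:**
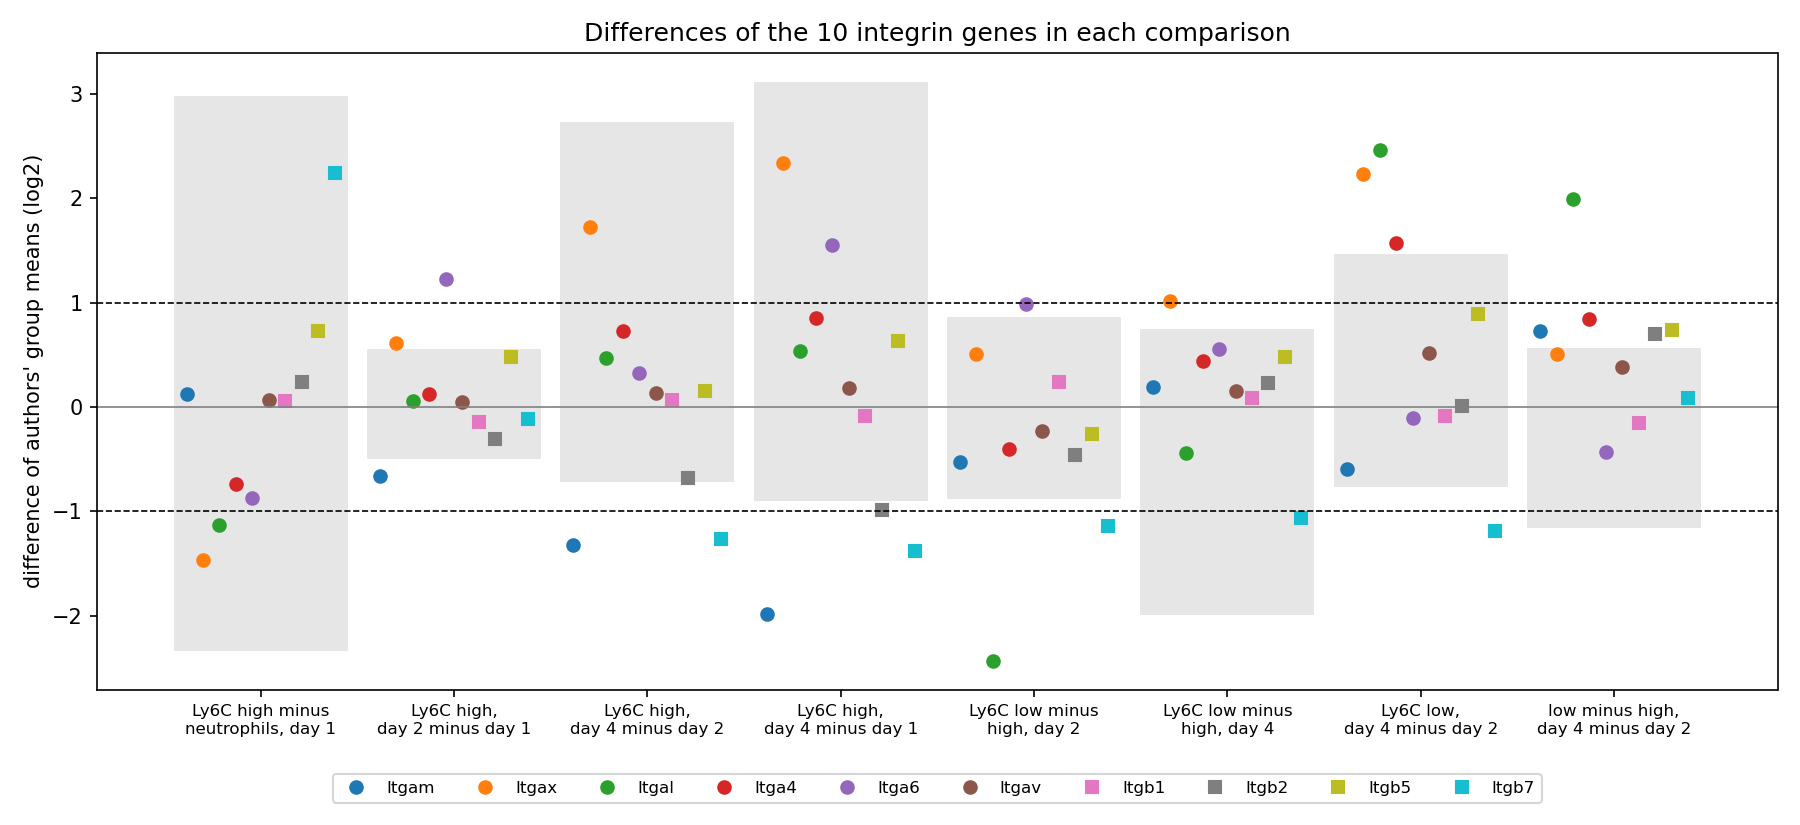
Differences of the authors' group means on the log2 scale (vertical axis) of the 10 genes, circles for alpha and squares for beta subunits, in the 8 comparisons (horizontal axis), with dashed lines at 2-fold and grey bars from the 5th to the 95th percentile of all genes compared. Itgal lies below the bar at -2.43 in Ly6C low against Ly6C high cells of day 2 and above it at 2.46 in Ly6C low cells of day 4 against day 2, and Itgb7 lies beyond -1 in the 5 macrophage comparisons from Ly6C high day 4 against day 2 to Ly6C low day 4 against day 2.

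The 17 further integrin genes of the mouse were read in the same way. Itga5, the fibronectin receptor subunit, had the highest level of them per kilobase of exon in every column, at log2 values of 9.82 to 11.41, lowest in neutrophils and highest in day 1 Ly6C high cells. Of those compared, 6 of 10 were 2-fold higher and 3 lower on day 4 than on day 1 in Ly6C high cells, with a median difference of 1.86, against 17.6% higher and 3.97% lower among all genes. Itga3, Itga7, Itga11 and Itgad were below 5 on day 1, entered only through day 4 and could be called only as higher. Itgb8 entered only through day 1 and could be called only as lower. These counts and the median are thus partly set by the filter. Itga7, the laminin receptor of muscle (6.60 against 2.86), Itga11, a collagen receptor of fibroblasts (5.21, listed at 0 on day 1), and Itga9 (9.75 against 7.44) were higher, and Itga1, a collagen receptor (7.90 against 9.99), was lower. Myogenic progenitor markers summed to 7.45 and 8.47 in Ly6C high and Ly6C low cells of day 4 and to at most 4.68 in the earlier macrophage columns, beside Itga7, and fibroblast markers differed as given above, beside Itga11. Their part in these differences was not tested. Itga1 was lower in Ly6C low than in Ly6C high cells on day 2 (6.25 against 8.95) and on day 4 (5.52 against 7.90). Itgb2l, a beta 2-like gene of neutrophils, had 3.34 in the neutrophil column and was listed at 0 in all 5 macrophage columns.

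**Figure D4:**
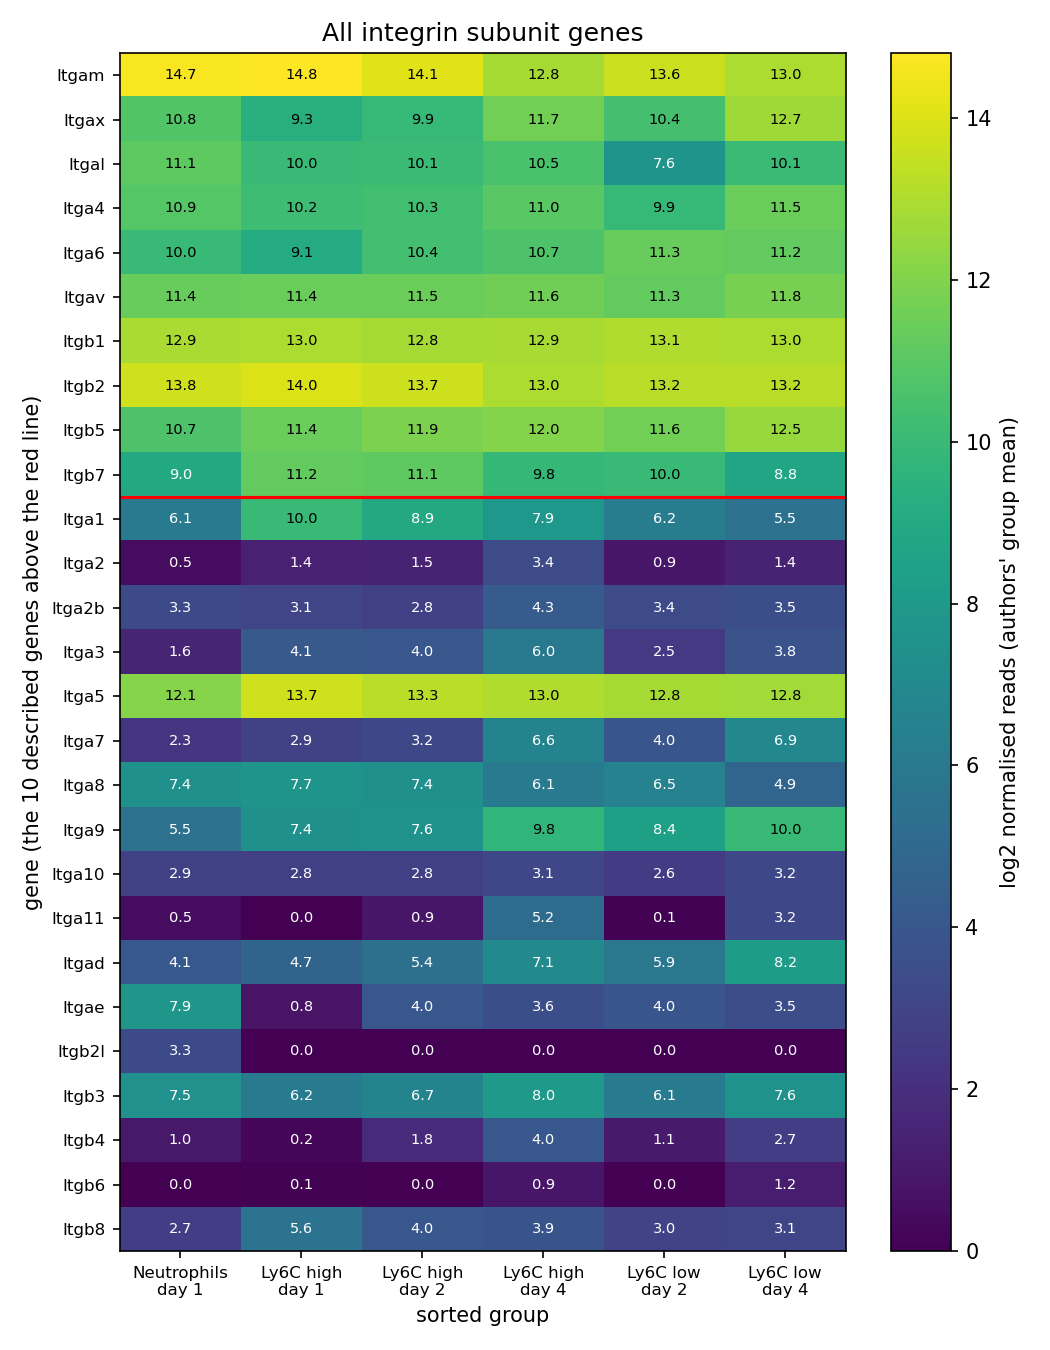
Log2 normalised reads (colour scale and printed value, authors' group mean) of the 27 integrin subunit genes (vertical axis) in the 6 groups (horizontal axis), with the 10 described genes above the red line. Itga5 is the strongest gene below the line, reaching 13.7 in the day 1 Ly6C high column, and Itgb2l is at 3.3 in neutrophils and 0 elsewhere.

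Of 12 genes that switch integrins on, 2 were 2-fold higher and none lower on day 4 than on day 1 in Ly6C high cells, with a median difference of -0.30, where 21.6% of all genes were 2-fold apart around a median of 0.01. These were the kindlin gene Fermt2 (8.63 against 5.99), which is typical of fibroblasts and endothelial cells, and Rassf5 (9.04, higher by 1.04), an effector of Rap1. Fermt3, the kindlin of blood cells, had 11.36, 11.55 and 10.86 by day in Ly6C high and 11.39 and 11.33 in Ly6C low cells, and Tln1, which encodes talin, had 13.27, 13.28 and 12.81 and then 13.21 and 13.08. Fermt2 was also 2-fold lower in Ly6C low than in Ly6C high cells on both days (3.27 against 5.28 and 5.76 against 8.63). Fibroblast and endothelial markers were lower there too, and their part was not tested. Against neutrophils, 2 of 12 were higher and 3 lower in Ly6C high cells of day 1, where 16.6% of all genes were higher and 16.1% lower. Among them were Fermt2 (5.99 against 2.48) and Apbb1ip, which links Rap1 to talin (10.43 against 11.74). None of the 4 inhibitors of integrin activation, such as Sharpin and Itgb1bp1, was 2-fold apart in any of the 8 comparisons. The share of all genes 2-fold apart ran from 2.51 to 32.7% by comparison, so the lack of calls among 4 genes says little about them.

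Of 20 genes that carry the signal of a bound integrin, 4 were 2-fold higher and 1 lower on day 4 than on day 1 in Ly6C high cells, with a median difference of -0.12. Among all genes 17.6% were higher and 3.97% lower, so the share apart was near the background of 21.6%. The largest differences were those of Parva (8.22 against 4.98) and Bcar1 (6.70 against 3.87), which act at focal adhesions, and Vav3 was lower (9.15 against 10.18). Parva and Bcar1 were below 5 on day 1 and entered only through day 4. Fibroblast markers went from 8.93 to 15.86 and endothelial markers from 10.11 to 12.60 in the same comparison. Parva was also lower in Ly6C low cells on day 2 (2.20 against 5.11) and day 4 (5.65 against 8.22), as those markers were, and their part was not tested. In Ly6C low against Ly6C high cells of day 2, 3 of 19 were lower and none higher, against 4.03% lower and 3.71% higher among all genes. One of the 3 was the Src family kinase gene Fgr (9.85 against 10.93). Ptk2b, the focal adhesion kinase of leukocytes, was lower in day 1 Ly6C high cells (9.60) than in the neutrophils (12.34).

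Of 21 genes for integrin ligands, 13 were 2-fold higher and 2 lower on day 4 than on day 1 in Ly6C high cells, with a median difference of 3.01, against 17.6% higher and 3.97% lower among all genes. In Ly6C low against Ly6C high cells of day 4, 1 was higher and 13 were lower, with a median of -1.93, against 2.44% higher and 8.93% lower among all genes. Of the 21, 15 reached 5 in Ly6C high cells of day 1 and 17 in Ly6C low cells of day 4. The rest, Vtn among them, entered only through the Ly6C high column of day 4. They could be called only as higher there, so these counts and medians are partly set by the filter. The same filter held for the shares of all genes. The laminin genes Lama2 (7.86 against 3.24) and Lamb1 (10.38 against 6.05) were among those higher on day 4, in the column with the highest fibroblast and endothelial markers, whose part was not tested. Of ligands that myeloid cells make themselves, thrombospondin (Thbs1) was at 16.50, 15.71 and 13.76 in Ly6C high cells and at 14.15 and 11.64 in Ly6C low cells, and fibronectin (Fn1) at 16.64, 16.26 and 15.59 and at 15.85 and 14.62. Osteopontin (Spp1), a ligand of Itgav and Itga4 integrins, was higher in Ly6C low than in Ly6C high cells on day 2 (17.72 against 16.54) and day 4 (16.18 against 15.11). Icam1, a ligand of Itgal and Itgam, had 13.95 in neutrophils, then 11.87, 11.53 and 12.20 in Ly6C high and 11.55 and 12.35 in Ly6C low cells. The 3 fibrinogen genes were listed at 0 in all 6 columns.

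For the 7 members that spanned at least 2-fold, the protein-coding genes closest in pattern were sought among 11279, by the root mean square difference of values centred on each gene's own mean over the 6 columns. Itgb5 had the closest match, Tmem191c at 0.067, followed by Plxnd1 (0.11) and Npc2 (0.12). Closest to Itgb7 were Ccdc134 (0.11), Slc39a14 (0.15) and Lpar1 (0.21), and closest to Itga6 were Syngr1 (0.12), Pter (0.15) and Car9 (0.16). Itga4 was closest to Zfp949 (0.14), Arhgef4 (0.16) and Pde4a (0.16). Itgam was closest to Raet1d (0.20), Abcc1 (0.20) and Pla2g4a (0.20), and Itgax to Unc13b (0.23), Kctd12b (0.24) and Cd72 (0.24). Itgal had the poorest match of the 7, with I830077J02Rik at 0.33, Cd244 at 0.47 and Entpd1 at 0.47, and all 3 of these genes were lowest in Ly6C low cells of day 2, at 4.63, 3.96 and 9.84. A lowest column shared with Itgal follows largely from choosing genes by closeness to its pattern. All these genes share the same 6 columns and libraries, and the distances are given as a description.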

How the data were processed

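The deposited values are log2 normalised reads in 1 table, with 1 column per group, per the file headers, and were used as the authors' group means. The submitters' processing notes name mm10, TopHat2 2.0.7 and Cufflinks 2.0.2 without a role. How the reads were normalised, and to which annotation, is not given in the sources used here. Low values times a group's sample number fell on ladders of whole reads for 24.6 to 56.0% of low-valued genes (relative tolerance 1e-05). A single value recurred in 1375 genes of the neutrophil column, whose exon lengths ran from 116 to 7974 bases (5th to 95th percentile), so values were treated as not per length. Zeros were taken as a floor. The depth per sample is unknown beyond the estimated worth of a read.

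Differences are subtractions of columns with pandas 2.3.3 on Python 3.11.15. No test was run, because there is 1 value per group, and no p-value, SD or interval is given. Genes entered a comparison from a log2 value of 5 in any of its groups and were called at a difference of 1. The counting step was tested on simulated data. Lengths and coordinates come from GENCODE M21 (GRCm38, the assembly of mm10), which held 95.3% of the gene identifiers, and promoters from RefSeq on GRCm38.p6. No protein sequences were used here. Members, lists and thresholds were chosen with earlier results of these data known. All 10 members are described. List genes were named as the 2 highest and 2 lowest differences past 2-fold in a comparison, and of the marker lists up to 2 defining genes. Fcgr1, C1qc, Ccr7, Batf3, Vwf, Bst2, Tcf4, Fermt3, Tln1, Sharpin, Itgb1bp1, Itga5, Itga9, Itgb2l and the fibrinogen genes were chosen after their values were seen.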

Additional observations from a re-analysis of the deposited data

How the results depend on the processing

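No paired analysis was possible because the table holds 1 column per group and no single samples, and for the same reason no sample could be left out. Of 640 values of the 80 member differences under 8 other settings (a pseudocount of 5, no filter, a minimum of 7, rescaling by the median ratio over all or over protein-coding genes, quantile normalization, summed rows and a 1.5-fold line), 618 stayed on their side of the line, 21 crossed it outward, and 1 fell inside it. No filter, the minimum of 7 and the summed rows could not change any member value. The lowest member value was 7.63, and each member stood on a single row. Their values are thus among the 618 by construction. No difference of 2-fold or more changed sign, while 7 smaller ones (at most 0.15 in size) did under rescaling or quantile normalization. The members 2-fold apart in Ly6C low against Ly6C high cells of day 4 numbered 1 after quantile normalization, which put Itgax at 0.98. With the 1.5-fold line, which calls more genes by construction, the members called numbered 6 for Ly6C high cells against neutrophils, 3 for day 2 against day 1, 5 for day 4 against day 2 and 7 for day 4 against day 1 of Ly6C high cells, and 5 for the difference of differences, all 5 of these higher. The share of all genes called was then 52.3, 7.93, 29.4, 37.1 and 16%. Rescaling shifted the columns by -0.08 to 0.07 and crossed Itgb2 over the line between days 1 and 4 of Ly6C high cells (-1.06 and -1.09), which quantile normalization put at -0.53. Quantile normalization crossed Itga4 in that comparison (1.00) and Itga6 on day 2 (1.16). Quantile normalization also moved the share of higher genes among all genes called, from 81.6 to 56.9% and from 87.7 to 62% in Ly6C high cells (day 4 against day 1 and day 2), from 21.4 to 38.2% between the day 4 subsets, from 81.1 to 66.7% in Ly6C low cells and from 13.7 to 30.4% for the difference of differences. Over all genes, in the order of the report, 3886, 282, 2008, 2674, 889, 1414, 1346 and 891 were called. The counts were 8154, 1024, 4542, 5398, 2244, 3263, 3235 and 2826 with no filter, 2556, 136, 1019, 1471, 448, 723, 750 and 342 with the minimum of 7, and 6220, 891, 3629, 4601, 2208, 2639, 3325 and 2015 with the 1.5-fold line. With coding length in place of exon length, added after the data were seen, the summed alpha level was 1.44 times Itgb2 in neutrophils, 1.22, 1.00 and 0.967 times in the Ly6C high columns by day, and 0.972 and 1.11 times in the Ly6C low columns. Protein length, planned for this, was not run. The Itgax share was then 5.90% in neutrophils, 2.12, 4.87 and 26.9% in Ly6C high cells, and 9.88 and 40.7% in Ly6C low cells. The variation between animals is not known from these means, and differences near the line may lie within it.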
